A study of Mus musculus with 12 samples.

Results

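The 10 genes Cpt1a, Cpt1b, Cpt2, Acadvl, Acadm, Acadl, Acads, Hadha, Hadhb and Etfdh encode the carnitine shuttle and the core enzymes of mitochondrial fatty acid oxidation. They were matched by gene symbol, and all 10 were found among the 55281 genes of the count table. RNA sequencing covered gonadal white adipose tissue (GWAT) of male mice in 4 groups of 3 libraries, and RNA of 3 mice was pooled in each library. All mice carried the floxed Hoip allele (Hoip fl/fl; Hoip is also named Rnf31), WT mice lacked the Cre transgene (AdipoQ.Cre-) and HoipA-KO mice carried it (AdipoQ.Cre+), so that in HoipA-KO mice the deletion is driven by the adiponectin promoter in mature adipocytes and other cells of the tissue keep the gene. From 6 weeks of age, mice of both genotypes received a control diet with 14% fat by the labels (CD; the sources differ slightly on this figure) or a high-fat diet with 60% fat (HFD) for 16 weeks, and tissue was collected at 22 to 24 weeks. The pools are the replicates, and differences between single mice are not seen in these data.

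Long-chain fatty acids enter mitochondria as carnitine esters. CPT1, in the outer membrane, makes the ester and is the step that malonyl-CoA inhibits; CPT1A is the liver-type and CPT1B the muscle-type isoenzyme, and CPT2, in the inner membrane, gives the fatty acid back to CoA. Acyl-CoA dehydrogenases of differing chain-length preference then start each round of oxidation, the trifunctional protein of HADHA and HADHB subunits carries out the later steps on long chains, and ETFDH passes the electrons to ubiquinone. White adipocytes are known above all for storing and releasing fatty acids, but they hold this pathway as well.

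Hadha and Hadhb lie head to head on mouse chromosome 5 (GRCm38), Hadha on the minus strand at chr5:30118304-30155162 and Hadhb on the plus strand at chr5:30155248-30184593. Cpt1a lies on chromosome 19 (plus strand, chr19:3322334-3385733), Cpt2 on chromosome 4 (minus strand, chr4:107903981-107923610) and Acadm on chromosome 3 (minus strand, chr3:153922357-153944632). The sequence at these starts is shown because Cpt1a, Cpt2 and Acadm were called in the comparisons given later, and because Hadha and Hadhb start side by side. Each is the run of bases outside every GENCODE vM21 exon in the RefSeq start window (GRCm38.p6), written 5′ to 3′ on the strand of the gene, and capitals mark matches to AGGTCA (a nuclear receptor motif) or GGGCGG (a GC box) on either strand. The first run holds all 85 bases between the starts of Hadha and Hadhb (chr5:30155163-30155247, plus strand). The others are chr19:3323051-3323284 for Cpt1a, which lies within an intron of a longer Cpt1a transcript, chr4:107923611-107923839 for Cpt2 and chr3:153944633-153944893 for Acadm.
Hadha and Hadhb: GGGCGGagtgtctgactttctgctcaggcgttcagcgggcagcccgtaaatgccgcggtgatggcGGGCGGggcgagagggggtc
Cpt1a: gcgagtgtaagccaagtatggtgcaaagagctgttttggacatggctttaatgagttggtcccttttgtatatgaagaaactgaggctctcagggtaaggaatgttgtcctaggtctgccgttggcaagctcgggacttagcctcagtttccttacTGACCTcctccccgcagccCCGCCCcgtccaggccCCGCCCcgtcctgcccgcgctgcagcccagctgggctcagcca
Cpt2: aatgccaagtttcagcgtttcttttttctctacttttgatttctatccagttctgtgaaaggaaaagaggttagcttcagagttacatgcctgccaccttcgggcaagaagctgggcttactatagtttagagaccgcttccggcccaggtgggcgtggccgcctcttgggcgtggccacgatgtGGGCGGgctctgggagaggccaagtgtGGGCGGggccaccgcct
Acadm: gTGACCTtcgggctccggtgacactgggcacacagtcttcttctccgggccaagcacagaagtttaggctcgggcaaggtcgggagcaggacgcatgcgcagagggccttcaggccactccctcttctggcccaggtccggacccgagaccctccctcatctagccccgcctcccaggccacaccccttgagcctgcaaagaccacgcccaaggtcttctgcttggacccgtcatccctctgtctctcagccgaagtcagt
In the whole windows, 250 bases before to 50 after each start, GGGCGG was found in 7 of the 9 members in the table against 35.6% of all 32817 windows, and AGGTCA in 3 of 9 (Cpt1a, Acadvl and Acadm) against 16.3%. CCAAT was found in 2 of 9 against 37.4%, and TATAAA in 0 of 9 against 13.6%. The matches are letters in a window and were not tested as sites. These motifs were searched on both strands, and none of them contains another.

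Libraries held 30513500 to 60540260 counts, and 3 counts, the floor, correspond to 0.0524 to 0.0996 CPM (normalised read counts, scaled to a common library size with TMM factors over all 12 libraries). WT CD replicate 3 stood apart: 4299 genes with 19.7% of its counts were over 8 times above every other library, and the summed level of 9 male germ cell markers was 10620 CPM there against 0.0222 to 457 CPM elsewhere. In WT CD replicate 2, 394 such genes held 6.84% of counts, and 8 markers of the epididymis, the tissue next to this fat pad, summed to 16244 CPM. The study's own comparisons leave out WT CD replicate 3, so that differences are given here over 11 libraries, with WT CD represented by 2, and then over all 12. Adipocyte markers were present in every library (Adipoq 203 to 3541 CPM). The skeletal muscle gene Ckm was at 0 to 0.349 CPM except in HoipA-KO HFD replicate 1, where it had 39.3 CPM. Acta1, another gene of the muscle list, had 106 CPM in that library and 64.2 CPM in WT CD replicate 1. Elsewhere it had 1.95 to 24.7 CPM. Rnf31 had 18.2 to 20.9 CPM in the WT libraries of the 11 and 17.7 to 22.5 CPM in HoipA-KO, with a log2 fold change of -0.08 ± 0.14 (SE) on CD and 0.13 ± 0.12 on HFD. These gene-level counts therefore do not check the genotype labels; they include exons outside a deleted part and cells in which the gene is kept.

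**Figure D1:**
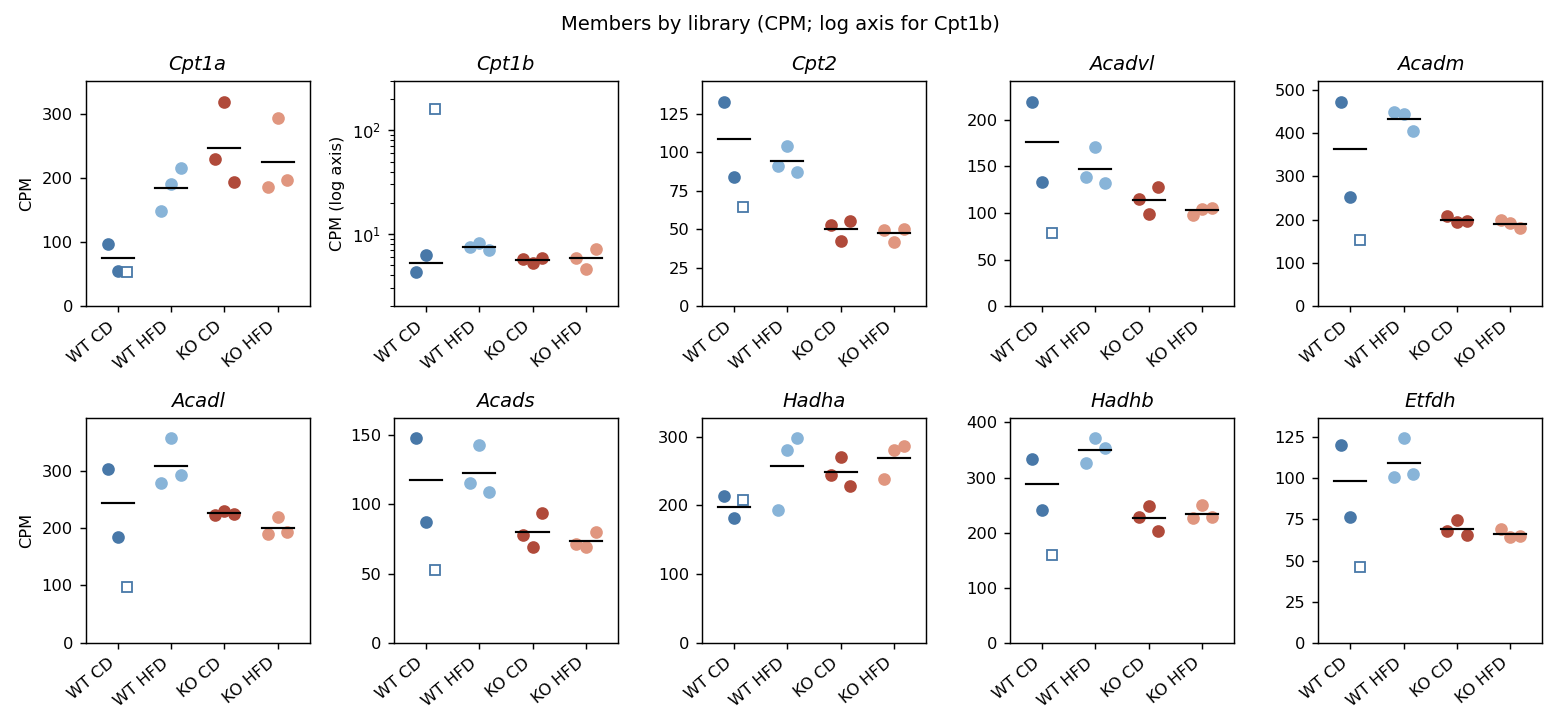
Level of each of the 10 genes in every library (y axis, CPM, linear from 0 except a log axis for Cpt1b) by group (x axis; KO, HoipA-KO); circles are the 11 libraries of the comparisons, the open square is WT CD replicate 3 and the bar is the mean without it. Cpt1a sits at 53.0 to 97.1 CPM in WT CD and at 185 to 319 CPM in HoipA-KO, while Cpt2 sits at 42.0 to 55.6 CPM in HoipA-KO below all WT libraries.

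The first question was how the loss of HOIP in adipocytes moved these genes on CD. Cpt1a rose, Cpt2, Acadm and Acadvl fell, and 6 members did not pass the test. Among all 18427 genes tested, 18.9% were called higher and 18.8% lower, so the shares of members called (1 of 10 higher, 3 of 10 lower) are not far from those of the transcriptome. The median log2 fold change was -0.39 over the 10 members and -0.06 over all genes. Calls were made with edgeR's quasi-likelihood test at an adjusted p of 0.05 (Benjamini-Hochberg over all genes tested), and errors of log2 fold changes are standard errors.

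Cpt1a, the gatekeeper of entry, was at 97.1, 54.7 and 53.0 CPM in the 3 WT CD libraries and at 229, 319 and 193 CPM in HoipA-KO CD. All HoipA-KO libraries lay above all WT libraries, with means of 247 ± 65.1 CPM (SD, n = 3) and 75.9 ± 30.0 CPM (SD, n = 2, replicates 1 and 2). The log2 fold change was 1.74 ± 0.35 (adjusted p = 0.00468) over 11 libraries and 1.83 ± 0.30 (adjusted p = 0.00179) over 12. Cpt1b, the muscle-type isoenzyme, was at 4.26 and 6.30 CPM in the first and second WT CD libraries and at 5.26 to 5.86 CPM in HoipA-KO CD, and its difference was 0.12 ± 0.24. In WT CD replicate 3, the library with germ cell transcripts, Cpt1b had 161 CPM, and over 12 libraries its log2 fold change was -3.44 ± 1.13 (adjusted p = 0.0393), a call that rests on this library.

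Cpt2, the inner-membrane partner of CPT1, had 133, 83.9 and 64.1 CPM in WT CD and 52.5, 42.0 and 55.6 CPM in HoipA-KO CD. No HoipA-KO library reached the lowest WT library, and the means were 50.0 ± 7.09 CPM (SD, n = 3) and 108 ± 34.6 CPM (SD, n = 2). Its log2 fold change was -1.08 ± 0.19 (adjusted p = 0.00261) over 11 libraries and -0.93 ± 0.23 (adjusted p = 0.0136) over 12. Cpt1a and Cpt2 kept their calls and directions on CD whichever of the 11 libraries was left out, with log2 fold changes of 1.40 to 2.19 and of -1.37 to -0.73.

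Acadm, the medium-chain dehydrogenase, had 472, 253 and 154 CPM in WT CD and 209, 193 and 197 CPM in HoipA-KO CD. WT CD replicates 1 and 2 lay above all HoipA-KO libraries and replicate 3 below them. The log2 fold change was -0.83 ± 0.22 (adjusted p = 0.0168) over 11 libraries, and neither 12 libraries (-0.58 ± 0.30, adjusted p = 0.160) nor leaving out WT CD replicate 1 (-0.33, adjusted p = 0.11) gave a call. Acadvl, the very-long-chain dehydrogenase, had 220, 133 and 78.3 CPM in WT CD against 115, 99.3 and 128 CPM. Its log2 fold change of -0.59 ± 0.21 (adjusted p = 0.0492) lost its call over 12 libraries (adjusted p = 0.353) and when any of 6 libraries was left out, by itself. These were WT CD replicate 1 (log2 -0.20), WT HFD replicates 1 and 2, HoipA-KO CD replicates 1 and 2, and HoipA-KO HFD replicate 2.

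The other dehydrogenases did not pass on CD. Acadl (long-chain) had 303, 184 and 98.2 CPM in WT CD and 224 to 230 CPM in HoipA-KO CD, and Acads (short-chain) had 148, 87.3 and 52.4 CPM against 69.3 to 94.0 CPM. Their log2 fold changes were -0.07 ± 0.21 and -0.52 ± 0.22. Etfdh, the last carrier of electrons in the pathway, had 120, 76.3 and 45.8 CPM in WT CD and 65.3 to 74.5 CPM in HoipA-KO CD (log2 fold change -0.47 ± 0.19, adjusted p = 0.0743). For all 3 genes WT CD replicate 1 held the highest and replicate 3 the lowest of the 6 values on CD, and the HoipA-KO libraries lay between them.

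The subunits of the trifunctional protein had estimates of opposite sign on CD, and neither passed the test. Hadha had 214, 181 and 207 CPM in WT CD and 245, 271 and 228 CPM in HoipA-KO CD, with no overlap between the groups (log2 fold change 0.36 ± 0.21, adjusted p = 0.200). Hadhb had 335, 241 and 160 CPM in WT CD and 229, 248 and 203 CPM in HoipA-KO CD, with overlap (log2 fold change -0.31 ± 0.18, adjusted p = 0.202). Counted over the 11 libraries, 4 members (Cpt2, Acadvl, Acadm and Etfdh) had all HoipA-KO CD libraries below WT CD and 2 (Cpt1a and Hadha) had all above, against 26.8% and 27.2% of all genes. Leaving out libraries gave 2 to 6 members called on CD. Without WT CD replicate 1 there were 2 (Cpt1a and Cpt2), with 18.1% of all genes called higher and 20.2% lower, and without WT CD replicate 2 there were 6 (those as reported, Acads and Etfdh), with 16% higher and 15.7% lower. Over 12 libraries 3 were called (Cpt1a, Cpt2 and Cpt1b), where 15.6% of 18074 genes were called higher and 19.1% lower.

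On HFD, HoipA-KO against WT gave 4 members lower and 0 higher, with 7.62% of all genes called lower and 4.2% higher. The 4 were Cpt2, Acadm, Acads and Etfdh, and the median over the 10 members was -0.58 against 0.06 over all genes. In 7 of 10 members (these 4, Acadvl, Acadl and Hadhb) every HoipA-KO HFD library lay below every WT HFD library, as in 23.7% of all genes, and in 0 above, as in 20.6%. Epididymal markers summed to 1311 CPM in HoipA-KO HFD replicate 1 and to 179 CPM in replicate 3, against 0.147 to 13.5 CPM in WT HFD, and in replicate 1 68 genes with 1.13% of counts were over 8 times above every other library. Without HoipA-KO HFD replicate 1, Cpt2, Acadm and Etfdh were called lower (log2 -0.996, -1.18 and -0.73) and Acads was at -0.68 (adjusted p = 0.078), with 7.21% of all genes called lower.

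Acadm had 448, 444 and 405 CPM in WT HFD and 199, 192 and 181 CPM in HoipA-KO HFD, and the values within each group were close to each other beside the gap between the groups. Its log2 fold change was -1.16 ± 0.20 (adjusted p = 0.0132). Cpt2 had 91.1, 104 and 87.0 CPM against 49.6, 42.0 and 50.0 CPM, a log2 fold change of -0.98 ± 0.18 (adjusted p = 0.0141). Acads had 116, 143 and 109 CPM against 71.1, 69.0 and 80.3 CPM (log2 -0.72 ± 0.20, adjusted p = 0.0481), and Etfdh had 101, 124 and 103 CPM against 68.9, 64.4 and 64.7 CPM (log2 -0.71 ± 0.17, adjusted p = 0.0306).

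The remaining members on HFD did not pass. Acadl had 278, 357 and 292 CPM in WT HFD and 190, 220 and 193 CPM in HoipA-KO HFD (log2 fold change -0.60 ± 0.19, adjusted p = 0.0677). Hadhb had 326, 371 and 354 CPM against 226, 250 and 228 CPM (log2 -0.56 ± 0.16, adjusted p = 0.0519), and Acadvl had 132 to 171 CPM against 98.0 to 106 CPM (log2 -0.50 ± 0.19, adjusted p = 0.108). Hadha, at 193, 280 and 298 CPM in WT HFD and 239, 280 and 286 CPM in HoipA-KO HFD, and Cpt1a, at 148, 191 and 215 CPM against 185, 293 and 197 CPM, overlapped between the genotypes, with differences of 0.08 ± 0.19 and 0.31 ± 0.30. Cpt1b had 7.05 to 8.07 CPM against 4.62 to 7.20 CPM, with a difference of -0.34 ± 0.22.

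The calls on HFD lie close to the threshold. Over 12 libraries edgeR gave Acadm and Cpt2 log2 fold changes of -1.18 ± 0.31 (adjusted p = 0.0667) and -0.99 ± 0.23 (adjusted p = 0.0511). It called 0 of 10 members, and of all genes 2.25% lower and 0.531% higher. At an unadjusted p under 0.05 were 5 of 10 members, beside 3931 of all 18074 genes. No member was called without WT HFD replicate 1, without WT HFD replicate 2 or without HoipA-KO HFD replicate 2, where 1.3%, 1.6% and 1.35% of all genes were called lower. Cpt2 and Acadm alone were called without HoipA-KO CD replicate 1 (4.7% of all genes lower) or HoipA-KO HFD replicate 3 (2.42%). Without WT CD replicate 1 or replicate 2, 7 members were called, with 10.5% and 11.2% of all genes lower, and DESeq2 called 6, with 12.1%. All fitted directions of the 4 called members stayed negative in these fits.

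**Figure D2:**
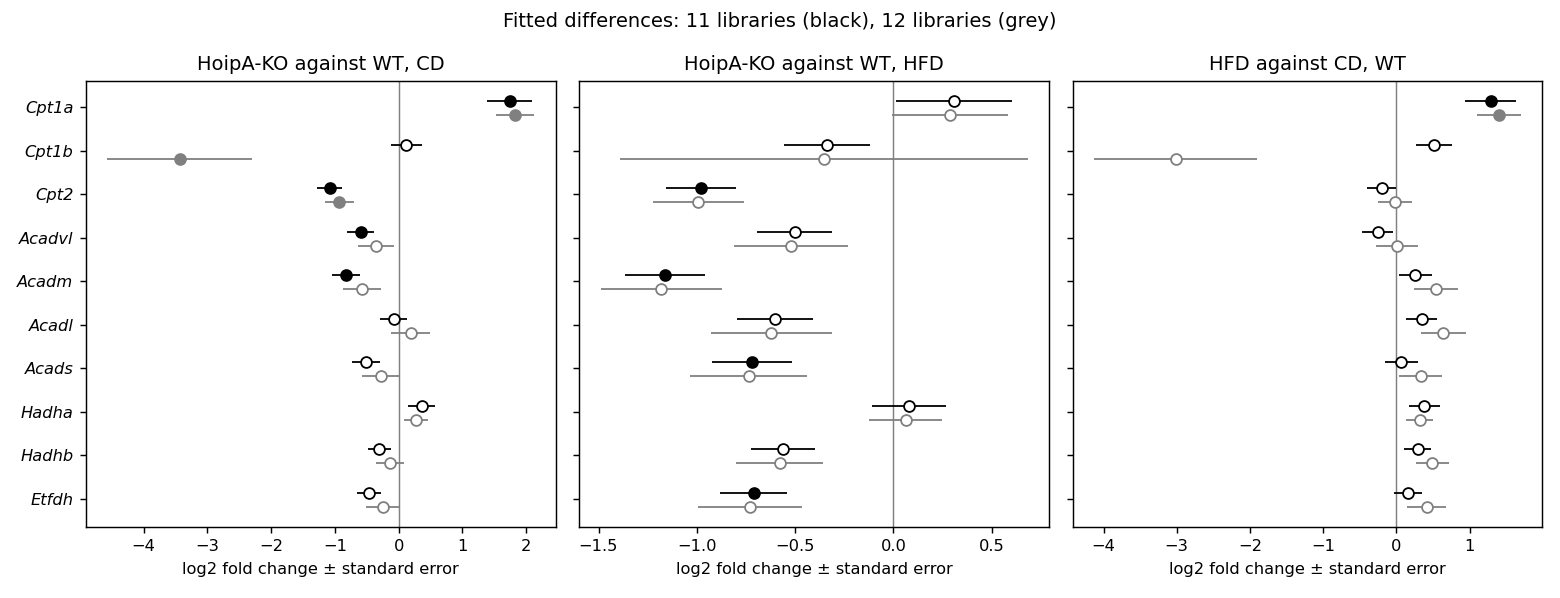
Log2 fold change with its standard error (x axis) of each gene (y axis) in 3 comparisons, over 11 libraries (black) and over all 12 (grey); filled circles have an adjusted p under 0.05 in edgeR's quasi-likelihood test, and the panels differ in the range of the x axis. Cpt2 lies at -1.08 on CD and at -0.98 on HFD, while Cpt1b moves from 0.12 to -3.44 on CD when WT CD replicate 3 is added.

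In WT mice the diet comparison called Cpt1a and no other member. It rose from 97.1 and 54.7 CPM in WT CD replicates 1 and 2 to 148, 191 and 215 CPM in WT HFD, a log2 fold change of 1.29 ± 0.34 (adjusted p = 0.0365), and of 1.41 ± 0.30 (adjusted p = 0.0154) over 12 libraries. Of all genes 9.35% were called higher and 5.47% lower, and 9.05% and 5.97% over 12 libraries. The other 9 members had log2 differences between -0.25 and 0.51. With WT CD replicate 3 added, Cpt1b was at -3.01 ± 1.11 (adjusted p = 0.0874). In 2 members (Cpt1a and Cpt1b) every WT HFD library lay above WT CD replicates 1 and 2, as in 24.2% of all genes, and in 0 below, as in 18.2%.

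WT CD replicates 1 and 2 differed in most members, and this bears on the comparison of diets. Without WT CD replicate 1, 5 members were called higher on HFD (Cpt1a, Acadm, Acadl, Hadhb and Etfdh), with 14.5% of all genes called higher in that fit. Cpt1a lost its call without WT CD replicate 2 (log2 0.94, adjusted p = 0.19), without WT HFD replicate 2 or 3, without HoipA-KO CD replicate 1 and without HoipA-KO HFD replicate 3, with log2 fold changes of 0.94 to 1.77 over the 11 omissions. It also lost it with the replicate number as a block (log2 1.30, adjusted p = 0.081) and when only the WT groups were fitted (1.21, adjusted p = 0.095).

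In HoipA-KO mice no member passed the test between the diets. The 10 log2 differences lay between -0.18 and 0.10, each smaller than its standard error, which ranged from 0.16 to 0.30. Of all 18427 genes, 0 were called by edgeR (0% in each direction), with 415 at an unadjusted p under 0.05, and DESeq2 called 9. Cpt1a had 193 to 319 CPM on CD and 185 to 293 CPM on HFD, and Acadm 193 to 209 CPM and 181 to 199 CPM.

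The interaction asks whether the genotype difference depended on the diet. It was not called for any member by edgeR, while 3.58% of all genes were called with a lower and 0.331% with a higher difference on HFD. At an unadjusted p under 0.05 was 1 of 10 members (Cpt1a), beside 4228 of all 18427 genes. For Cpt1a the interaction was -1.44 ± 0.45 on the log2 scale (adjusted p = 0.104 by edgeR), and DESeq2 called it (-1.39, adjusted p = 0.0209, with 8.26% of all genes called lower). Without WT CD replicate 1, edgeR called 3 members (Cpt1a, Acadm and Acadl), with 9.33% of all genes called lower. The other 9 members had interaction estimates between -0.53 and 0.11. Cpt1a was thus called on CD and not on HFD, but a difference between the diets was not shown for it by edgeR's test.

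The ratio of Hadha to Hadhb within a library does not depend on the scaling between libraries. On CD it was 0.640 and 0.752 in WT replicates 1 and 2, and on HFD 0.590, 0.755 and 0.840. The HoipA-KO libraries gave 1.07, 1.09 and 1.12 on CD and 1.06, 1.12 and 1.25 on HFD. All 6 HoipA-KO libraries thus lay above these 5 WT libraries, and the mean log2 difference was 0.66 on either diet. WT CD replicate 3, with a ratio of 1.29, lay above all of them, and the mean difference of 0.66 over both diets became 0.51 with it. This ratio was picked after the values of its genes were seen, and no test is given.

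The ratio of Cpt1a to Cpt1b, the liver-type over the muscle-type isoenzyme, was 22.8 and 8.68 on CD in WT replicates 1 and 2, and on HFD 20.0, 23.6 and 30.5. The HoipA-KO libraries gave 40.1, 60.7 and 33.0 on CD and 32.0, 63.5 and 27.4 on HFD. HoipA-KO CD lay above both WT groups, and on HFD a single HoipA-KO library (27.4) lay below the highest WT library. The mean log2 difference over both diets was 1.13 (exact permutation test within diets, 2-sided, p = 0.01 over 200 arrangements, of which the smallest possible p is 0.005). The difference was 1.62 on CD and 0.65 on HFD. Without WT CD replicate 2 it was 0.79 (exact permutation p = 0.05). In WT CD replicate 3, where Cpt1b had 161 CPM, the ratio was 0.329. Over 12 libraries the difference was 2.04 (exact permutation p = 0.01), and its rise from 1.13 rests on that library.

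**Figure D3:**
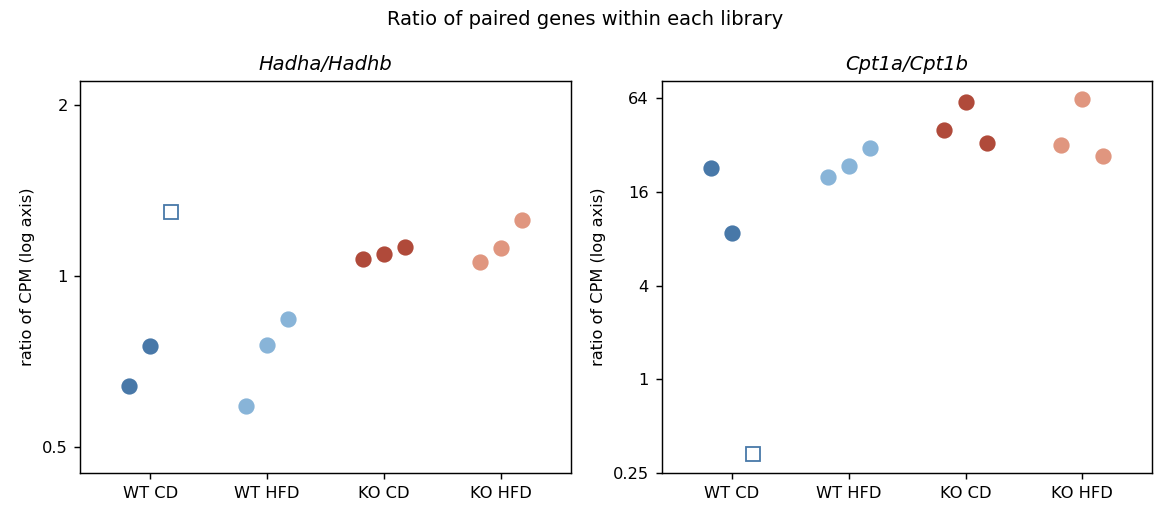
Ratio of CPM of Hadha to Hadhb (left) and of Cpt1a to Cpt1b (right) in each library (y axis, log axis) by group (x axis; KO, HoipA-KO); the open square is WT CD replicate 3. Hadha to Hadhb is 0.590 to 0.840 in the 5 other WT libraries and 1.06 to 1.25 in the 6 HoipA-KO libraries, and the open square lies at 1.29.

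Levels can be set side by side once divided by exon length (CPM per kb of the merged exons of protein-coding transcripts). In WT HFD the order was Acadm (211, range 198 to 219), Hadhb (169, 157 to 179), Acadl (161, 145 to 186), Acadvl (67.9, 61.1 to 78.9), Acads (65.5, 58.1 to 76.5), Hadha (63.9, 48.0 to 74.1), Etfdh (45.3, 41.7 to 51.5), Cpt1a (42.8, 34.2 to 49.9), Cpt2 (39.6, 36.7 to 43.7) and Cpt1b (2.59, 2.44 to 2.79). Ranges of neighbours overlapped except between Acadm and Hadhb, between Acadl and Acadvl, and between Cpt2 and Cpt1b; those of Hadha and Etfdh overlapped by a small margin. In HoipA-KO CD the order was Acadl (118), Hadhb (109), Acadm (97.5), Hadha (61.7), Cpt1a (57.2), Acadvl (52.6), Acads (42.9), Etfdh (28.7), Cpt2 (21.1) and Cpt1b (1.94). Acadm, first in WT HFD, was thus the third in HoipA-KO CD, but these groups differ in diet as well as genotype. In WT CD the ranges of Acadm (124 to 231) and Hadhb (116 to 161) overlapped. Cpt1a stood above Cpt2 by more than their ranges in HoipA-KO CD (44.7 to 74.0 against 17.7 to 23.4) but below it in WT CD (12.7 to 22.5 against 35.4 to 56.0). Ranges of neighbours overlapped in HoipA-KO CD except between Acadm and Hadha, Acads and Etfdh, Etfdh and Cpt2, and Cpt2 and Cpt1b. On their own strand Cpt1b overlaps the gene model Gm44502, Acadl the processed pseudogene Gm15793 and Etfdh Gm37973, so that their counts are uncertain where reads could be shared.

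**Figure D4:**
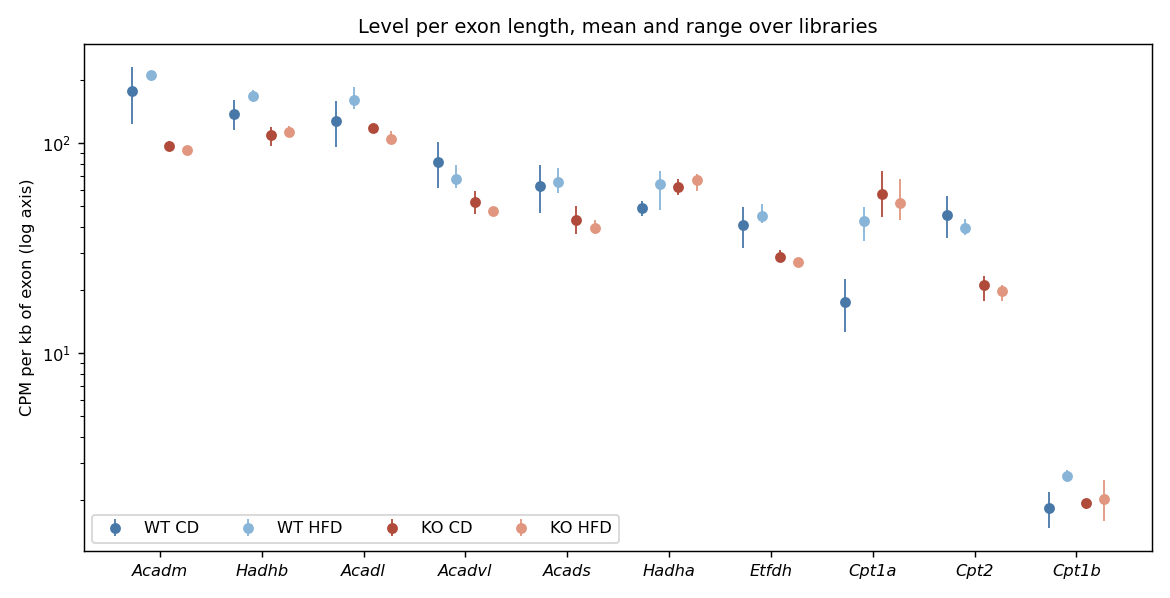
Level per kb of exon (y axis, log axis, CPM per kb) of each gene (x axis, ordered by WT HFD), as the mean (circle) and range (line) over the 11 libraries in WT and HoipA-KO (KO) on each diet. Cpt1a is at 17.6 in WT CD and 57.2 in HoipA-KO CD, and Cpt2 at 45.7 and 21.1.

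The rest of the pathway was described from gene lists, whose counts stand beside all genes, of which 18.8% fell and 18.9% rose on CD and 7.62% fell and 4.2% rose on HFD. Over 12 libraries 19.1% fell and 15.6% rose on CD and 2.25% fell and 0.531% rose on HFD. Of 15 other genes of mitochondrial fatty acid oxidation, 10 fell and 0 rose on CD and 8 fell and 0 rose on HFD, with medians of -0.79 and -0.73. Hadh, the short-chain hydroxyacyl-CoA dehydrogenase, had log2 fold changes of -1.30 ± 0.23 and -1.03 ± 0.21 (adjusted p = 0.00257 and 0.0205), and Decr1, needed for unsaturated chains, of -1.10 ± 0.22 and -1.22 ± 0.20 (adjusted p = 0.00427 and 0.0113). Etfa, which hands electrons to ETFDH, had -1.01 ± 0.20 and -0.95 ± 0.18, and the carnitine acetyltransferase gene Crat -0.79 ± 0.17 and -0.73 ± 0.16, all 4 values past the threshold. Over 12 libraries 5 of the 15 fell on CD and 1 on HFD.

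Peroxisomes shorten chains that mitochondria do not take. Of 14 genes of peroxisomal oxidation, 8 fell and 2 rose on CD, and 7 fell and 0 rose on HFD (medians -0.86 and -0.58; over 12 libraries 5 fell and 1 rose on CD and 3 fell on HFD). The fatty acyl-CoA transporter gene Abcd2 had log2 fold changes of -2.11 ± 0.31 and -2.02 ± 0.29, Scp2 -1.86 ± 0.15 and -1.15 ± 0.14, and Ech1 -0.93 ± 0.22 and -0.74 ± 0.20, each past the threshold on both diets.

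Upstream of the carnitine shuttle, 13 genes of uptake, activation and carnitine supply were measured, of which 2 fell and 3 rose on CD and 1 fell and 0 rose on HFD (medians -0.12 and 0.15). Acsl1, the acyl-CoA synthetase of adipocytes, had log2 fold changes of -1.36 ± 0.31 (CD) and -1.71 ± 0.29 (HFD), both past the threshold. Fabp5, a fatty acid carrier also found in macrophages, rose by 1.70 ± 0.29 on CD (adjusted p = 0.00191) and had a difference of 0.35 ± 0.24 on HFD. The uptake genes Cd36 (1.04 ± 0.46 and -0.00 ± 0.40) and Slc27a1 (-0.12 ± 0.30 and -0.36 ± 0.27) passed on neither diet.

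Of 13 regulators, 9 fell on CD and 5 on HFD, and 0 rose (medians -1.41 and -0.78; over 12 libraries 6 and 2 fell). Acaca and Acacb, the enzymes that make the CPT1 inhibitor malonyl-CoA, fell on both diets, with log2 fold changes of -3.03 ± 0.29 and -2.89 ± 0.30 (CD) and of -1.69 ± 0.26 and -1.72 ± 0.27 (HFD). Pparg, the nuclear receptor of adipocyte identity and also in the adipocyte list, had -1.41 ± 0.32 (adjusted p = 0.00821) and -1.11 ± 0.29 (adjusted p = 0.0407), and its partner Rxra -0.63 ± 0.28 and -0.78 ± 0.26, which did not pass. Acaca had 521 to 797 CPM in WT CD replicates 1 and 2 and 61.1 to 90.3 CPM in HoipA-KO CD.

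Downstream, 11 of 17 genes of the TCA cycle fell on CD and 7 on HFD, with 0 higher (medians -0.70 and -0.47; over 12 libraries 5 and 0 fell). Without WT CD replicate 2, 17 fell on CD, and without WT CD replicate 1, 5. Sdha, of succinate dehydrogenase, passed on both diets (-0.96 ± 0.19 and -0.61 ± 0.17), citrate synthase (Cs) passed on CD (-0.83 ± 0.24) and not on HFD (-0.71 ± 0.22), and Ogdh passed on neither. All 13 protein genes of the mitochondrial genome fell on CD and 12 on HFD (medians -1.96 and -1.17; over 12 libraries 12 and 2 fell), among them mt-Co1 (log2 -1.80 ± 0.25 and -1.06 ± 0.23), mt-Cytb (-2.38 ± 0.29 and -1.34 ± 0.26), mt-Nd4 (-2.34 ± 0.25 and -1.57 ± 0.23) and mt-Nd1 (-1.55 ± 0.24 and -1.10 ± 0.22). Of 5 ketone body genes 1 rose and 1 fell (Acat1, -1.36 ± 0.24) on CD, and 2 fell on HFD (Acat1, -0.97 ± 0.22, and Oxct1, -0.80 ± 0.22). Over 12 libraries no ketone body gene fell on HFD.

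**Figure D5:**
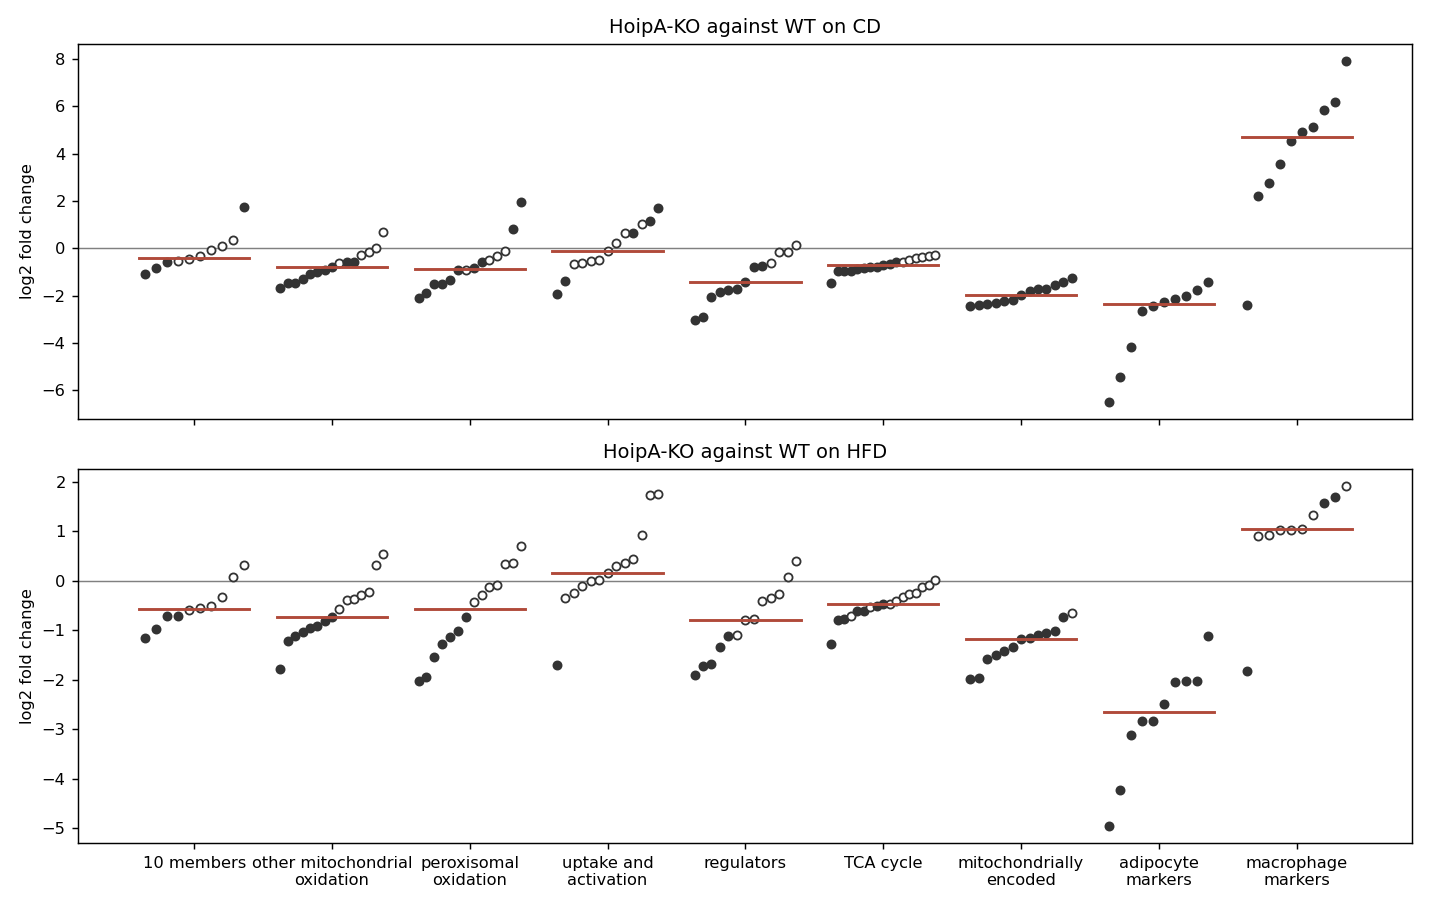
Log2 fold change of HoipA-KO against WT over 11 libraries (y axis) for every tested gene of 9 lists (x axis) on CD (top) and HFD (bottom); filled circles have an adjusted p under 0.05 in edgeR's quasi-likelihood test, red bars are list medians, and the panels differ in the range of the y axis. The members, with medians of -0.39 and -0.58, lie nearer to 0 than the adipocyte markers at -2.35 and -2.66.

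Markers of cell types also differed between the genotypes. All 10 adipocyte markers fell on CD and on HFD (medians -2.35 and -2.66; 9 on each diet over 12 libraries), and their summed level was 11344 and 26713 CPM in WT CD replicates 2 and 1, 8522 to 12580 CPM in WT HFD and 1378 to 3001 CPM in HoipA-KO. Of 10 macrophage markers, 9 rose and 1 (Cd163) fell on CD, and 2 rose and 1 (Cd163) fell on HFD (0 and 1 over 12 libraries). They summed to 462 and 602 CPM in WT CD, 2065 to 7602 CPM in WT HFD and 9031 to 20750 CPM in HoipA-KO. Cpt1a, the member that rose, was lowest in WT CD, where Adgre1, the gene of the macrophage marker F4/80, had 13.6 and 19.9 CPM. Adgre1 had 102, 265 and 526 CPM in WT HFD replicates 1 to 3, in which Cpt1a had 148, 191 and 215 CPM. In HoipA-KO CD Adgre1 had 492, 667 and 324 CPM, with Cpt1a at 229, 319 and 193 CPM. In HoipA-KO HFD Adgre1 had 415, 646 and 613 CPM, with Cpt1a at 185, 293 and 197 CPM. HoipA-KO HFD replicate 3 thus had more Adgre1 and less Cpt1a than WT HFD replicate 3. Cd163, of the same list, had 41.8 to 56.2 CPM in WT HFD and 6.88 to 14.6 CPM in HoipA-KO. The part of these markers in the members' differences was not tested, and in bulk tissue fewer cells of a type and less RNA per cell cannot be told apart.

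Among smaller lists, 3 of 5 endothelial markers fell on each diet (1 and 0 over 12 libraries), 2 of 6 progenitor markers rose on CD and 0 on HFD, and of 6 brown adipocyte markers 3 fell and 1 rose on CD and 1 fell on HFD. Ucp1, the defining brown fat gene, had 0.0178 to 0.500 CPM except 13.0 CPM in WT CD replicate 2. All 9 germ cell markers were called lower on CD and 0 on HFD; in WT CD replicates 1 and 2 they summed to 19.4 and 457 CPM. Of 7 epididymal markers tested 1 fell on CD and 0 on HFD. On CD 2 of 6 skeletal muscle markers rose and 1 fell, and 2 of 6 liver markers fell; on HFD 1 of each fell. A single gene, Cyp2e1, held 5388 of the 5418 CPM of the liver list in WT CD replicate 1. In WT CD replicate 2 it held 2579 of 2604 CPM, and Alb had 28.5 and 23.0 CPM in these 2 libraries. The liver counts are therefore not read as a result about liver cells.

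When libraries were scaled so that the mean log2 level of the adipocyte markers was equal in all of them, all 10 members were called higher in HoipA-KO on both diets. So were 81.5% of all genes on CD and 93% on HFD, and the median of all genes moved to 2.87 and 2.88 on the log2 scale. The members' medians were 2.67 and 2.27, and 6 of 10 on CD and 8 of 10 on HFD lay below the median of all genes. Cpt2 was the lowest of them on CD at 1.93 ± 0.45, and Cpt1a the highest at 4.90 ± 0.80. Single markers did not stay level under this scaling. On CD Pparg (1.70), Cidec (1.36), Plin1 (1.13), Lipe (1.02) and Plin4 (0.95) were called higher. Cfd (-3.52), Adrb3 (-2.25) and Retn (-1.14) were called lower, and Acvr1c (0.67) and Adipoq (0.40) were not called. On HFD Pparg (1.74) was called higher, Cfd (-2.20) and Adrb3 (-1.56) lower, and the other markers were not called. The members' values here are relative to this set of markers. With WT CD replicate 3 added, Cpt1b moved from 2.91 ± 0.60 to -1.37 ± 1.18 on CD.

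The genes whose pattern over the 12 libraries was most like the mean of the members were Hsd17b4, a peroxisomal oxidation enzyme (Pearson r = 0.966), Lama4, a basement membrane laminin (0.963), Oxct1, the enzyme of ketone body use (0.954), Coq3, of ubiquinone synthesis (0.953), and 4931406C07Rik (0.952), among 10332 genes of at least 10 CPM. The libraries share their groups, and the values are a description. The members did not all share the pattern of their mean. Over 11 libraries r was 0.97 between Acadm and Etfdh, but -0.65 between Cpt1a and Cpt2 and -0.39 between Hadha and Cpt2. Hsd17b4, Lama4 and 4931406C07Rik were also among the 5 highest over 11 libraries, with Bcl2l13 and Sfxn5 in place of Oxct1 and Coq3.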

How the data were processed

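Polyadenylated RNA of GWAT was sequenced in 12 libraries. The authors deposited estimated counts per gene, not normalized, made with Trim Galore 0.6.7, STAR 2.7.10a and Salmon 1.5.2, for all genes and for 21646 protein-coding genes. The submitters' processing notes give GRCm38, so GENCODE vM21 positions of that build are used; the methods print a human build. The authors' DESeq2 tables (fold changes, p-values and CPM) were not used.

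After rounding to whole numbers, genes of low counts were left out (filterByExpr), TMM factors were computed and 1 model of the 4 groups was fitted in edgeR 4.0.16 (R 4.3.3), with the quasi-likelihood test, a prior count of 0.125 and Benjamini-Hochberg adjustment over all genes tested. All 10 members passed the filter. CPM values are TMM-normalized over 12 libraries. Intervals of counting error are not given, and p-values measure the spread between pools, which may be technical in part. DESeq2 1.42.0 was an alternative, beside other scalings, filters, libraries and a replicate block. The fit was tested on simulated data. The members and lists were chosen with earlier results of these data known. Genes named are the members, the 4 genes of highest mean CPM of each other list of the pathway, marker genes, and the 5 genes most like the members. Some genes named by this rule are not reported here. Acta1, Adgre1, Adipoq, Alb, Cd163, Ckm, Cyp2e1 and Ucp1 were named after their values were seen.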

Additional observations from a re-analysis of the deposited data

Results flagged for a closer look

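Cpt1b had 161 CPM in WT CD replicate 3, a library that the main comparisons do not use, against 4.26 to 8.07 CPM in the 11 other libraries. In the same library 9 male germ cell markers summed to 10620 CPM, against 0.0222 to 457 CPM in the others. The part of these transcripts in the Cpt1b value was not tested.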

How the results depend on the processing

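On CD, 4 members were called in the comparison as reported, 2 with only the groups compared and 7 in the protein-coding table. On HFD the count of 4 became 0 with all 12 libraries, 7 with only the groups compared and 0 with WT CD as replicates 1 and 3. For the diets in WT the count of 1 became 0 with only the groups compared, 7 with WT CD as replicates 2 and 3, and 2 with replicates 1 and 3. The interaction count of 0 became 1 with DESeq2 and 4 with WT CD as replicates 2 and 3. Leaving out 1 library gave 2 to 6 members on CD, 0 to 7 on HFD, 0 to 5 for the diets in WT, 0 to 3 for the interaction, and 0.79 to 1.48 for the log2 ratio of Cpt1a to Cpt1b. The reasons for these changes were not tested. The share of all genes called also changed between fits, on HFD from 7.62% lower as reported to 2.25% lower over 12 libraries. That share is not given for every setting here, so these counts are not read as results about the members.

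Directions on CD turned for Cpt1b (log2 0.12) with all 12 libraries (-3.44), the protein-coding table (-0.036), WT CD as replicates 2 and 3 (-3.94) or 1 and 3 (-3.95), and ranged from -0.15 to 0.44 over single omissions. Those of Acadl (-0.07) turned with all 12 libraries (0.19), WT CD as replicates 2 and 3 (0.66) or 1 and 3 (0.15), and ranged from -0.38 to 0.31. With WT CD as replicates 2 and 3, Acadvl (0.10), Acads (0.19), Hadhb (0.16) and Etfdh (0.17) turned as well, and Hadha on HFD ranged from -0.088 to 0.21 over single omissions. None of these values in the reported fit except that of Acadvl on CD had passed the threshold.

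Deviations of same-numbered libraries correlated in HoipA-KO on CD and HFD (r = 0.139, 0.499 and 0.277 for numbers 1 to 3), where each pair passed 0.1. Between the other groups r ranged from -0.371 to 0.371 and not every pair passed 0.1. With 2 or 3 pools a group, these values cannot decide whether same-numbered libraries were matched. With the replicate number as a block, 3 members were called on CD, 3 on HFD, 0 for the diets in WT, 0 for the diets in HoipA-KO and 0 for the interaction. The share of all genes called in the blocked fit is not given, so these counts are not read as results about the members. The log2 ratio of Cpt1a to Cpt1b was 1.11 with the block, in an exact permutation test with too few arrangements to pass the threshold. All members lay above the floor of 3 counts (at most 0.0996 CPM) in every library, and with 2 or 3 pools a group their number limits the precision.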
